A study of Drosophila melanogaster with 40 samples.

Results

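Small nucleolar RNAs that are named as guides of pseudouridylation were followed through 40 RNA-seq libraries of whole Drosophila melanogaster. The guides were all genes of the deposited count table whose name starts with snoRNA:Psi, and they numbered 109 of 17490. The name gives the ribosomal RNA and the position of the uridine that the guide is annotated to modify, and the choice used names alone and no measured value. In all, 46 guides were annotated to 18S rRNA at 18 positions and 63 to 28S rRNA at 36 positions.

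Pseudouridine is an isomer of uridine that is formed after transcription. In ribosomal RNA it is made by H/ACA particles, in which a guide RNA folds into hairpins and pairs with the rRNA on either side of the target uridine, and a core enzyme, called dyskerin in vertebrates and Nop60B in flies, carries out the reaction. Most animal snoRNAs lie in introns, are cut out of the spliced intron, and accumulate as stable particles in the nucleolus. A guide in an intron thus comes from the transcript of its host gene, and the count table lists it as a gene of its own.

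The study placed feline MYBPC3, which encodes the heart sarcomere protein cMyBP-C, under UAS control and drove it with the heart driver TinCΔ4-Gal4. The 4 genotypes were attP2, the control that carried the driver and the empty attP2 site, and the co-isogenic WT, A31P and R820W lines, which carried the driver and the normal transgene or one of 2 missense variants known from cats with hypertrophic cardiomyopathy. Each library was made from a pool of 10 whole animals, so the heart contributed only part of the RNA. Larvae of unstated sex and adults aged 1 week were sampled, and the adults were separated by sex and into exercised and nonexercised animals, with exercise being 1 h of repeated forced climbing. These 5 sets of 8 libraries held 2 biological replicates of each genotype, and a set is the unit of comparison below unless lines are named.

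Lanes and flow cells bear on every comparison here. Larvae and nonexercised adults were run on one flow cell, where lane 7 held every replicate 1 and lane 8 every replicate 2. In these sets lane therefore cannot be told apart from replicate number, or from any batch that went with it. Exercised females were run in lane 1 and exercised males in lane 3 of another flow cell, so exercise and flow cell cannot be told apart, nor can sex and lane among exercised adults. Gene counts totalled 18493813 to 26917796 per library. Sex markers followed the labels, except in the A31P and R820W exercised male replicate 2 libraries. These held yolk protein RNA at 3.55% to 42.1% of the exercised female median, against at most 0.125% in the other exercised males. Eggshell RNA was at 13.1% to 143% there, against at most 0.293%, and ovary germline RNA at 4.82% to 17.8%, against at most 1.11%. In larvae, testis markers summed to 58.7 to 241 CPM (the unit of level used throughout, in which the counts of each library are scaled to one common total). In nonexercised males, yolk protein markers reached 111 CPM, with a median of 10.1, against 11414 or more in nonexercised females. Since whole animals were used, fewer cells that make an RNA and less of that RNA per cell cannot be told apart.

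The guides are short, nested genes. Their annotated lengths ran from 124 to 268 nt, with a median of 140 nt, close to the insert size of about 130 bp that the library protocol selected for. On the same strand, 104 guides lay in introns of 28 host genes and 5 had no host. Ribosomal protein genes made up 14 of the hosts and held 41 guides. Arpc2, a subunit of the actin-nucleating Arp2/3 complex, held 17 guides. RpS5a, a protein of the small ribosomal subunit, held 14, and dom, a chromatin remodeler of the SWI2/SNF2 family, held 12. Many guides are lettered copies with one target: 74 guides carried a copy letter, and the longest series was Psi18S-525a to k with 11 copies. Whether reads that fit several copies were discarded, shared or assigned at random was not given in the sources used here, so values of single copies are uncertain.

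Detection was taken as more than 3 counts in a library. By that rule 70 guides were detected in all 40 libraries, 36 in some and 3 in none. The number detected in every library of a set was 97 in exercised females, 81 in larvae, 80 and 76 in nonexercised females and males, and 73 in exercised males. In contrast, none of the 98 genes named as rRNA methylation guides, which belong to the C/D class, had a mean above 1 CPM, and 79 of those genes are annotated at 100 nt or less. The part of the library protocol in that gap was not tested.

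A few guides supplied most of the counts. Per kilobase, the highest mean levels over all libraries were those of Psi28S-3342 with 5051 CPM per kb, Psi28S-291 with 3787 and Psi28S-2566 with 2462, followed by Psi18S-1854c, Psi28S-3378 and Psi18S-1854b. Psi28S-3342 (chromosome X, 5524302 to 5524465, minus strand, release 6 of the genome) had no host gene. Psi28S-291 (3R, 11223571 to 11223790, plus strand) lay in the ribosomal protein gene RpL3, and Psi28S-2566 (3L, 18896189 to 18896456, minus strand) in CG3902. Together these 3 guides accounted for 60.4% to 69.9% of guide counts in nonexercised males, 62.2% to 69.1% in nonexercised females and 65.1% to 73.0% in larvae. Their share was 34.4% to 41.3% in exercised females and 30.3% to 37.2% in exercised males, with no overlap between exercised and nonexercised libraries.

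The summed guide level differed widely between sets. Exercised females had 8175 to 17223 CPM with a median of 12246, and larvae had 2656 to 6546 with a median of 4425. Nonexercised females followed with 1935 to 4364 and a median of 2754, and nonexercised males with 1472 to 2448 and a median of 2117. Exercised males were lowest, with 375 to 645 CPM and a median of 477. Both exercised sets stood clear of all others, one above and one below, and larvae lay above all nonexercised males. Nonexercised females overlapped both larvae and nonexercised males in this sum.

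**Figure D1:**
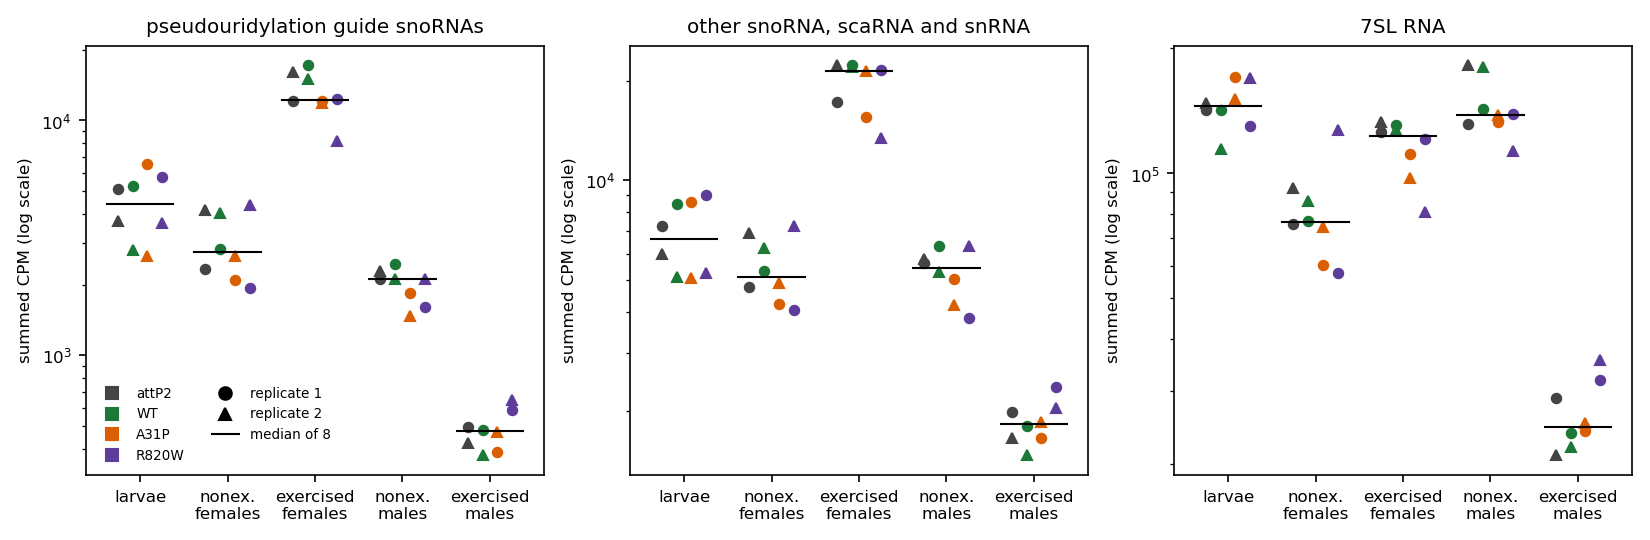
Summed level in CPM (log scale) of the guides, of other snoRNA, scaRNA and snRNA genes, and of 7SL RNA, for each library by set, with colour for the line, circles for replicate 1, triangles for replicate 2 and a line at the median of 8 libraries. The guides ran from a median of 477 CPM in exercised males to 12246 CPM in exercised females, and the other small RNA classes were also lowest in exercised males.

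Single guides were ordered less uniformly than their sum. Of the 106 guides with more than 3 counts in some library, 103 had their highest set median in exercised females, 2 in nonexercised females and 1 in nonexercised males. The lowest set median fell in exercised males for 73, in nonexercised males for 21, in larvae for 9 and in nonexercised females for 3. The full order exercised females, larvae, nonexercised females, nonexercised males, exercised males was shown by 51 of the 106, and the others followed other orders.

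The remaining snoRNA genes had the same order of medians as the guides, while snRNA and 7SL RNA did not. Median CPM of the remaining snoRNA genes was 7062 in exercised females, 3294 in larvae, 2435 in nonexercised females, 1771 in nonexercised males and only 434 in the exercised ones. The snRNA genes, which encode the RNAs of the spliceosome, had medians of 13444, 3141, 2490, 3315 and 1320 CPM in the same order, and 7SL RNA, the RNA of the signal recognition particle, had 123333, 145100, 76216, 138601 and 24532. Per 100 counts on other snoRNA genes, guides gave 165 to 202 in exercised females, above all other sets. That ratio was 102 to 122 in exercised males, 107 to 121 in nonexercised males, 101 to 134 in nonexercised females and 110 to 151 in larvae, all of which overlapped.

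In 2 sets, replicates of one genotype differed in a way that followed the replicate number, and so the lane. In larvae, replicate 1 had 1.37 to 2.47 times the summed guide CPM of replicate 2 in all 4 genotypes. In nonexercised females replicate 2 was the higher one in all 4, by 1.27 to 2.26 times. In the other sets the ratio of replicate 2 to replicate 1 lay on both sides of 1, at 0.662 to 1.33 in exercised females, 0.777 to 1.21 in exercised males and 0.796 to 1.33 in nonexercised males. For this reason the comparisons among larvae and nonexercised adults are also given within each lane.

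Each comparison was therefore made on 2 scales. The first fitted all genes with edgeR's quasi-likelihood test and TMM factors, with genotype as a term, and called a guide at an adjusted p (Benjamini-Hochberg over all genes tested) under 0.05 with an absolute log2FC over 0.5. The second repeated the fit with libraries scaled on the other snoRNA, scaRNA and snRNA genes, and so gives each guide relative to other small RNA. The share of all genes called on either scale is given beside the count of guides called in each comparison of sets. Counts that join 2 comparisons, lanes or scales have no such share, and they are not read as results about the guides. Between the scales, log2FC on TMM minus log2FC on small RNA was 0.13 and −5.24 for males against females without and with exercise. It was 1.17 and 0.97 for larvae against nonexercised females and males, and 3.32 and −2.05 for exercised against nonexercised females and males.

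In nonexercised adults, more guides were lower than higher in males against females. Of 82 guides tested, 41 were lower and 6 higher, with a median log2FC of −0.56. Over all genes tested, 33.8% were lower and 46.5% higher, with a median of 0.33. All 8 male libraries lay below all 8 female libraries for 15 of 101 guides, and above them for 0, where 29.4% and 37.1% of all genes separated in those directions. Scaled on other small RNA, 48 guides were lower and 3 higher (38.6% and 42.2% of all genes), and the 41 lower and 3 of the higher calls were held on both scales. Other small RNA classes differed in direction on the TMM scale: of 23 other snoRNA genes 10 were lower and 2 higher (median −0.31), of 18 snRNA genes 2 were lower and 10 higher (median 1.00), of 6 scaRNA genes 1 was lower and 2 higher (median 0.34), and both 7SL RNA genes were higher (median 0.90).

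This sex difference was uneven between lanes, and so between replicate numbers. Within lane 7, 18 guides were lower and 17 higher in males, with a median log2FC of −0.025, where 33.5% of all genes were lower and 46.3% higher. Within lane 8, 60 guides were lower and 1 higher, with a median of −1.08, where 32.9% of all genes were lower and 44.5% higher. Called lower in both lanes were 17 of the 82 guides, and 1, Psi18S-525k, was called higher in both, without a share of all genes for either joint count. Psi18S-1820, Psi18S-531, Psi18S-996 and Psi28S-2876 were higher in lane 7 and lower in lane 8. The 6 guides of lowest log2FC among those with separated libraries are described next, and all but Psi28S-2442a were called lower within either lane.

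**Figure D2:**
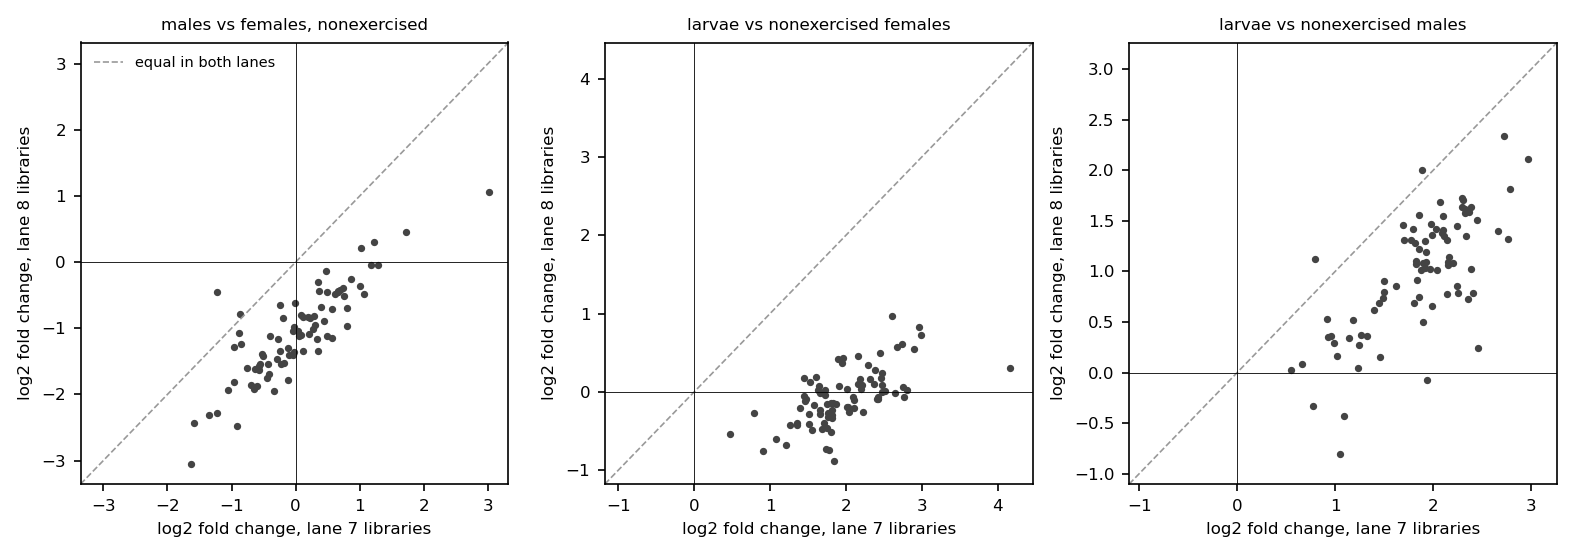
Log2FC of each guide within lane 7 (x axis) and within lane 8 (y axis) for 3 comparisons, with the line of equality. For males against females and for larvae against nonexercised females the guides lay along a line shifted below equality, with medians of −0.025 and −1.08 in the first and 1.84 and −0.061 in the second.

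The largest differences concerned copies of Psi28S-1135, which share an annotated target uridine in 28S rRNA and all lie in RpS5a on chromosome X. Psi28S-1135b (17146401 to 17146545, minus strand) had 0.787 to 2.32 CPM in nonexercised males with a median of 1.33, against 4.68 to 12.5 in females with a median of 6.64. Its log2FC was −2.38 (SE 0.24, adjusted p = 3.4e-08). Male libraries were all below female libraries, and the log2FC was −1.63 within lane 7 and −3.05 within lane 8. Psi28S-1135c had 3.08 to 4.91 CPM in males (median 4.003) and 12.8 to 23.2 in females (median 14.8), a log2FC of −2.04. Psi28S-1135d had 0.426 to 1.67 in males (median 1.14) and 2.79 to 6.37 in females (median 3.63), a log2FC of −1.85. Scaled on small RNA, these 3 neighbours remained lower, at −2.51, −2.21 and −2.01.

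Other copies of the series did not show that pattern. Psi28S-1135a was called lower at −0.57 (adjusted p = 0.056 in edgeR with the replicate block), and Psi28S-1135f had −0.36, which did not pass. Psi28S-1135e, which lies between Psi18S-1854a and Psi18S-1854b in the same host, was called higher in males at 0.56 (adjusted p = 0.0046), with 11.8 to 22.1 CPM in males against 8.37 to 17.5 in females. Its libraries overlapped, the call was not held on the small RNA scale (0.42), and within lanes the log2FC was 1.02 in lane 7, where it passed, and 0.21 in lane 8, where it did not. Across the 6 copies the log2FC thus ran from −2.38 to 0.56. The mRNA of RpS5a itself had a log2FC of −0.83, with 283 to 396 CPM in males and 597 to 686 in females.

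Psi18S-301 (3R, 20574906 to 20575043, plus strand), which has no host, gave the next lowest value. It had 2.56 to 5.12 CPM in nonexercised males (median 4.24) and 7.95 to 20.7 in females (median 14.95), a log2FC of −1.82 (SE 0.23, adjusted p = 6.1e-07). The sets did not overlap, and the log2FC was −1.22 in lane 7 and −2.28 in lane 8. Psi18S-841d, in dom, had 0.703 to 2.02 CPM in males and 2.81 to 6.33 in females, a log2FC of −1.51. Psi28S-2442a, in kra, was near the detection limit at 0 to 0.491 CPM in males and 0.502 to 1.26 in females, and its log2FC of −1.66 was −0.92 within lane 7, where it did not pass.

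No guide that was higher in males had separated libraries. The guides called higher were Psi18S-525k at 1.69, Psi28S-1180 at 0.98, Psi28S-2622 at 0.72, Psi28S-3405d at 0.57, Psi28S-1135e at 0.56 and Psi28S-3186 at 0.51. They are named because the count is small, after their values were seen. Psi28S-1180, in the chromatin remodeling gene tou, had 19.4 to 48.5 CPM in males with a median of 35.2, against 8.85 to 30.3 in females with a median of 15.6. Within lane 7 the log2FC was 1.73 and within lane 8 it was 0.46, which was not called.

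Most host genes also differed between the sexes. Of 26 hosts tested, 23 were lower and 1 higher in nonexercised males, with a median log2FC of −1.40. Guides did not track their hosts closely: over 77 guides with a tested host, Pearson's r of the 2 log2FC values was 0.21, a description across genes that share hosts. For 15 of the 77 the sign differed from that of the host. In dom, 7 of 7 tested guides were lower (median −1.06) and the host log2FC was −2.05. In RpS5a, 9 of 13 were lower and 1 higher (median −1.13). In Arpc2 only 3 of 17 guides could be tested, of which Psi18S-640b and Psi18S-640g were lower (−1.37 and −0.97), and the host log2FC was −2.66.

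Proteins of the H/ACA particle were lower in males as well, with larger differences on the log2 scale. All 7 listed genes, which encode the 4 core proteins and factors of assembly, were tested in nonexercised adults, and 6 were lower in males, with a median log2FC of −3.35. Nop60B, the synthase itself, had 15.6 to 24.9 CPM in nonexercised males and 384 to 623 in females (log2FC −4.81), yet Psi18S-1820, the guide in its own intron, had 7.68 to 21.6 CPM in males and 8.13 to 33.4 in females (log2FC −0.35, not called). The 4 listed C/D particle proteins were all lower in males too (median −4.09). Ovary germline markers summed to 1243 to 2067 CPM in these females and to 14.95 to 25.7 in males, and their part in the protein differences was not tested.

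In larvae against nonexercised males, 76 of 83 guides tested were higher in larvae and 0 lower, with a median log2FC of 1.60. Of the 79 that met the filter in nonexercised males alone, 72 were higher. Over all genes tested 34.4% were higher and 40.2% lower, with a median of −0.05. All larval libraries lay above all male libraries for 13 of 101 guides, where 16.9% of all genes did so. Within lane 7, 81 guides were higher and 0 lower, where 33.5% of all genes were higher and 39.5% lower. Within lane 8, 57 guides were higher and 0 lower, all 57 of them also higher in lane 7, where 32.8% of all genes were higher and 36.2% lower. Relative to other small RNA 29 remained higher and 0 were lower, with a median of 0.64, where 12.2% of all genes were higher and 55.2% lower.

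The guides with the largest rise over males were those that had been low in males. Psi18S-301 had 9.83 to 26.96 CPM in larvae with a median of 16.3, which gave a log2FC of 2.60 (SE 0.26, adjusted p = 2.4e-07). Psi28S-1135b had 3.39 to 10.1 CPM in larvae (median 5.62), also a log2FC of 2.60, and Psi28S-1135d had 1.81 to 7.30 (median 3.65), a log2FC of 2.39. Each was above every nonexercised male library, and each remained higher on the small RNA scale, at 1.63, 1.62 and 1.43. These comparisons share the nonexercised male libraries with the sex comparison and are not independent of it. For the abundant guides, Psi28S-3342 had 659 to 2005 CPM in larvae against 318 to 523 in nonexercised males (log2FC 2.04), and Psi28S-291 had 665 to 1589.6 against 306 to 506 (log2FC 1.90).

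Against nonexercised females, the result for larvae depended on the lane, or on the replicate number that went with it. In the joint fit on the TMM scale 63 of 84 guides were higher in larvae and 0 lower (median 0.89, against −0.28 when scaled on small RNA), where 40.1% of all genes were higher and 33.9% lower. Within lane 7, 81 guides were higher and 0 lower, with a median of 1.84, where 40.5% of all genes were higher and 32.5% lower. Within lane 8, 4 guides were higher and 4 lower, with a median of −0.061, where 37.8% of all genes were higher and 31.5% lower. Scaled on small RNA, 0 were higher and 3 lower, where 25.7% of all genes were higher and 56.2% lower. No guide had larval libraries clear of the female ones, while 25.3% of all genes did above and 38.8% below. The other classes gave a similar joint result, with 17 of 19 snRNA and 15 of 25 other snoRNA genes higher in larvae.

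Larvae were also low in particle proteins relative to females. All 7 H/ACA proteins and all 4 C/D proteins were lower in larvae than in nonexercised females, with medians of −1.66 and −2.26. Against nonexercised males 5 of the 7 H/ACA genes were higher and 1 lower, and all 4 C/D genes were higher. Nop60B had 43.3 to 71.6 CPM in larvae.

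Guides were higher in exercised than in nonexercised females on the TMM scale, but went both ways on the small RNA scale. Of the 96 guides tested, 15 passed the filter on low counts only through the exercised female libraries, so that a higher value was set by the filter for them. The 81 that met the filter in nonexercised females alone were also all called higher, with log2FC from 1.21 to 5.34 and a median of 3.35, where 16% of all genes were higher, 25.4% lower and the median of all genes was −0.02. Libraries did not overlap for 88 of 106 guides, against 4.03% of all genes in that direction. Other small RNAs rose as well, with 27 of 29 other snoRNA, 9 of 10 scaRNA and 28 of 28 snRNA genes called higher. On the small RNA scale the guides split into 22 higher and 27 lower, with a median of 0.020, so the direction for the class as a whole depended on the scale. All but a few genes shifted down on that scale, with 97.8% of all genes lower and 0.959% higher. As summed counts, guides gave 55.6 to 78.0 per 100 counts on other snoRNA, scaRNA and snRNA genes in exercised females. In nonexercised females that ratio was 47.9 to 64.4, which overlapped. Per 100 counts on other snoRNA genes alone, exercised females lay above, at 165 to 202 against 101 to 134.

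Within the class, the rise was far from uniform. Psi28S-2626, in RpS7, had 44.0 to 121 CPM in exercised females with a median of 84.1, against 1.14 to 3.93 in nonexercised females with a median of 1.94 (log2FC 5.34, SE 0.28, adjusted p = 1.1e-08). Psi28S-2444, in RpL11, had 6.82 to 40.8 CPM in exercised and 0.245 to 1.23 in nonexercised females (log2FC 5.22). Psi28S-1837a, in CG10576, had 10.3 to 25.1 CPM against 0.0925 to 0.898 (log2FC 5.16). The libraries of the 2 sets were far apart for each, and all 3 were also higher on the small RNA scale, at 2.02, 1.92 and 1.88.

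The 3 guides with the highest levels per kilobase were at the other end. Over 96 guides in females, however, Spearman's rho between guide level and log2FC was 0.02, given as a description across genes. Psi28S-3342 had 677 to 2461 CPM in exercised females and 457 to 1189 in nonexercised females, which overlapped, with a log2FC of 1.21 (adjusted p = 0.0016). Psi28S-291 had a log2FC of 1.38 and Psi28S-2566 one of 1.88. Relative to other small RNA these 3 were lower, at −2.14, −1.95 and −1.45.

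**Figure D3:**
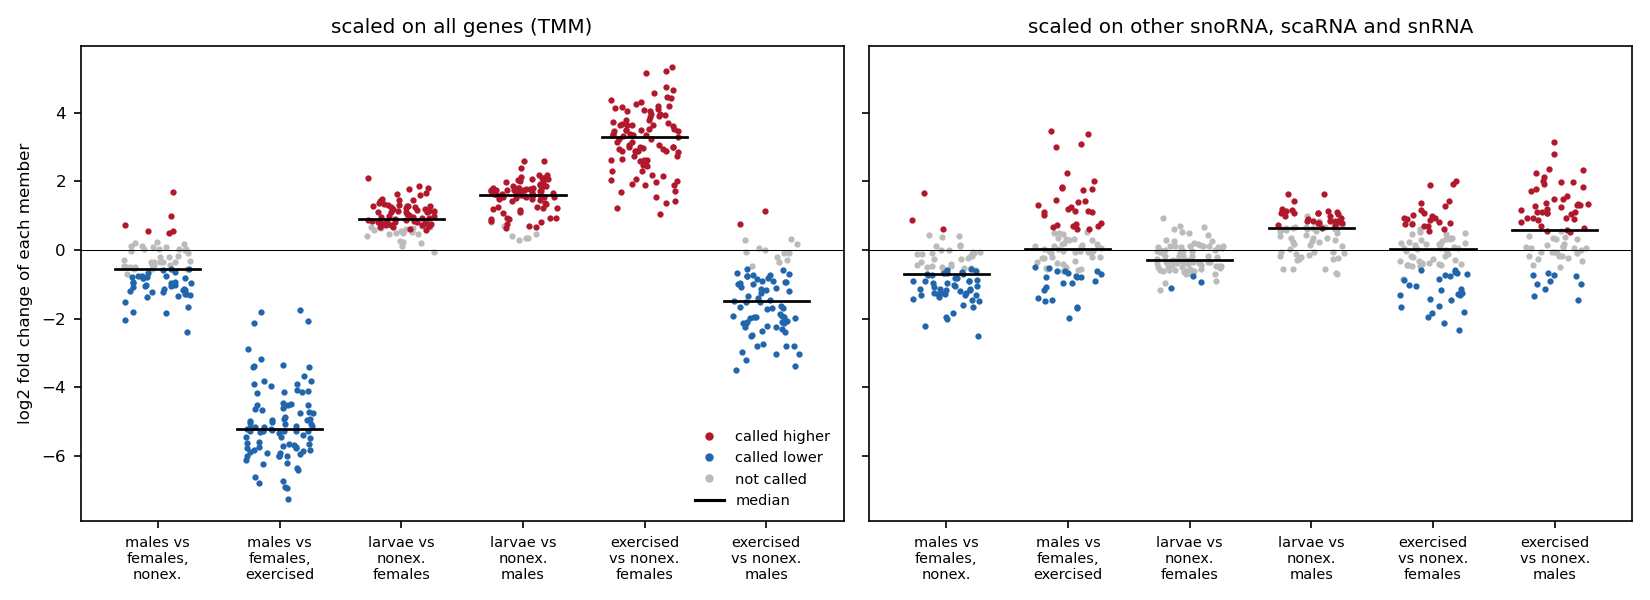
Log2FC of every tested guide in the 6 comparisons of sex, stage and exercise, on the TMM scale of all genes (left) and scaled on other small RNA (right), coloured by call, with a black line at the median. On the left all 96 tested guides, of which 15 and 24 passed the filter only through exercised females, were higher in exercised than in nonexercised females and lower in exercised males than in exercised females, and on the right the medians of those comparisons were 0.020 and 0.028.

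In exercised males guides were on balance lower than in nonexercised males on the TMM scale, while more were higher than lower on the small RNA scale. Of 80 guides tested, 66 were lower and 2 higher on the first scale (59 and 2 of the 72 that met the filter in exercised males alone), with a median log2FC of −1.48, where 5.61% of all genes were lower and 5.82% higher and the median of all genes was 0.01. All exercised libraries lay below all nonexercised ones for 35 of 98 guides, against 1.2% of all genes. Other snoRNA genes were lower in 20 of 23 cases and snRNA genes in 13 of 20. Scaled on small RNA, 42 guides were higher and 10 lower (median 0.57), where 98.9% of all genes were higher and 0.298% lower. As summed counts, guides were lower per 100 counts on other snoRNA, scaRNA and snRNA genes, at 23.4 to 31.7 against 33.6 to 41.8. Per 100 counts on other snoRNA genes alone, both sets overlapped. Without the 2 exercised male libraries that held female RNA, 1 guide was called higher rather than 2.

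Psi28S-3342 and Psi28S-2566, both among the highest in level per kilobase, were among the guides that fell most. Not all guides of high level did so: the copies of Psi18S-1854, b and c among them, had log2FC from −1.99 to −0.66. Over 80 guides in males, Spearman's rho between guide level and log2FC was −0.23, given as a description across genes. Psi28S-3342 had 38.0 to 65.5 CPM in exercised males with a median of 44.3, against 318 to 523 in nonexercised males with a median of 426, a log2FC of −3.51 (SE 0.13, adjusted p = 5.0e-11). Psi28S-2566 had 39.99 to 79.6 CPM against 342 to 577 (log2FC −3.38), and Psi28S-2622 (3L, 1488906 to 1489045, plus strand, no host) had 2.54 to 7.11 against 13.5 to 54.5 (log2FC −3.20). None of these overlapped between sets, and all 3 stayed lower relative to other small RNA, at −1.47, −1.33 and −1.13.

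Guides called higher in exercised males were Psi18S-1347a and Psi28S-1837a, the latter chosen after its values were seen. Psi18S-1347a, in the intron of pAbp, the gene of poly(A)-binding protein, had 1.51 to 3.46 CPM with a median of 2.00, against 0.541 to 1.13 with a median of 0.84, a log2FC of 1.13 (adjusted p = 0.00039) with no overlap. Psi28S-1837a had 0.912 to 1.71 CPM against 0.102 to 1.06, a log2FC of 0.75 with overlap. Psi28S-2626, the guide with the largest rise in exercised females, had a log2FC of 0.17 in males, which did not pass.

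Guide length was set beside the exercised against nonexercised values. Spearman's rho between guide length and log2FC was −0.32 over 80 guides in males and −0.06 over 96 guides in females, given as descriptions across genes. In males the median log2FC was −1.48 over all 80 guides tested and −2.12 for 12 guides over 150 and up to 170 nt. For the 2 guides longer than 170 nt, Psi28S-291 and Psi28S-2566, it was −3.21. The 13 other small RNA genes longer than 170 nt that were tested in males had a median of −3.74. What part fragment size or RNA recovery had in these values was not tested.

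**Figure D4:**
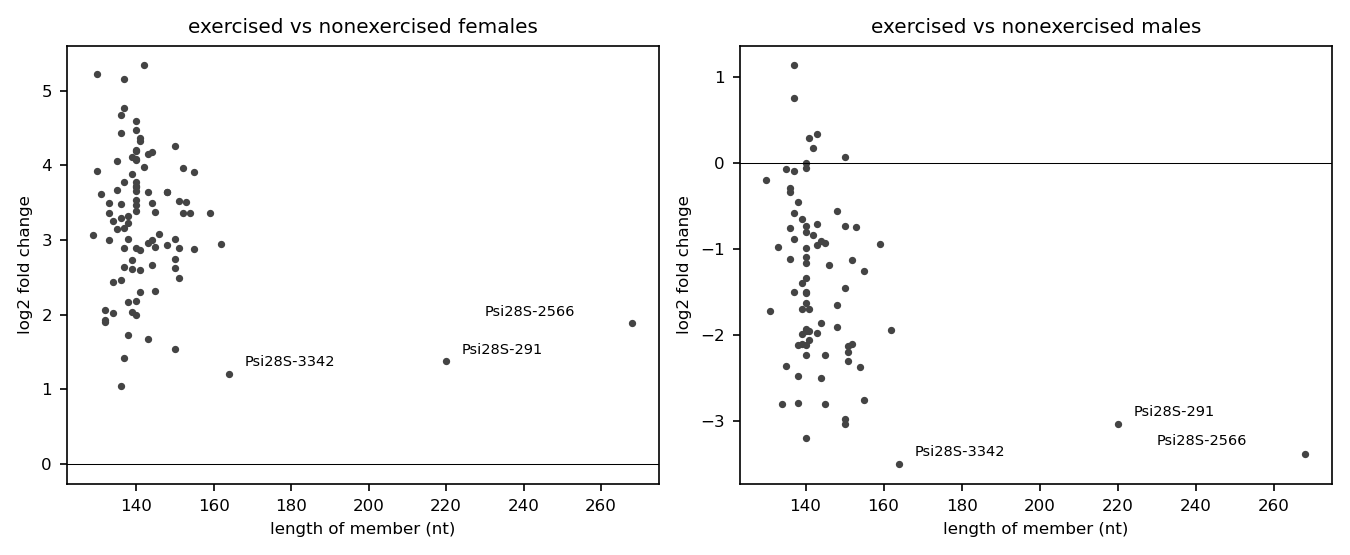
Log2FC of each guide, exercised against nonexercised, against its annotated length in nt, for females and for males, with Psi28S-3342, Psi28S-291 and Psi28S-2566 labelled. On this TMM scale the 3 labelled guides were at −3.51, −3.04 and −3.38 in males and at 1.21, 1.38 and 1.88 in females, and in females they turned to −2.14, −1.95 and −1.45 relative to other small RNA.

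Hosts and particle proteins were set against the shares of all genes called in the same comparisons, 16% higher and 25.4% lower in exercised females and 5.82% and 5.61% in exercised males. Of 26 hosts tested, 0 were higher and 7 lower in exercised females (median −0.04), and 4 were higher and 0 lower in exercised males (median 0.26). Of the 7 H/ACA proteins, 0 were higher and 2 lower in females (median −0.10), and in males none was called (median −0.04). Nop60B had a log2FC of 0.08 in females, whereas the guide in its intron, Psi18S-1820, had 232 to 363 CPM in exercised against 8.13 to 33.4 in nonexercised females (log2FC 4.19). In RpS5a, on the TMM scale, guides had a median log2FC of 2.75 in exercised females (14 tested) and of −1.17 in exercised males (13 tested), beside medians of −0.57 and 0.91 relative to other small RNA. The host had −0.01 and 0.38.

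The 11 copies of Psi18S-525, annotated to one 18S position, were the weakest large series. Psi18S-525a to j lie in Arpc2 and Psi18S-525k in Msp300, the gene of a giant protein that links nuclei to the cytoskeleton. Only Psi18S-525k was tested in nonexercised animals. It had 0.369 to 1.16 CPM in nonexercised males (median 0.612), 0 to 0.497 in nonexercised females (median 0.159), 0.0904 to 1.47 in larvae, 1.34 to 4.06 in exercised females and 0.0912 to 0.355 in exercised males. The copies Psi18S-525b, f, g and h stayed below 1 CPM in every library.

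Among exercised adults, guides were lower in males on the TMM scale, with a median log2FC of −5.21 over 96 guides tested that became 0.028 relative to other small RNA. All 96 were called lower, but 24 passed the filter only through the female libraries, where they were high. The 72 that met it in exercised males alone had log2FC from −7.28 to −1.74 with a median of −5.27. Over all genes tested, 34.8% were lower and 51.8% higher, with a median of 0.68. Libraries were fully separated for 96 of 105 guides, against 26.4% of all genes in that direction. All 67 other snoRNA, scaRNA and snRNA genes tested were lower as well. Relative to them, 29 guides were higher and 22 lower, where 97.1% of all genes were higher and 0.922% lower. As summed counts, guides gave 23.4 to 31.7 per 100 counts on those other genes in males. In females they gave 55.6 to 78.0, without overlap. Per 100 counts on other snoRNA genes alone, the ranges were 102 to 122 in males and 165 to 202 in females. The 2 male libraries with female RNA had summed guide levels of 472 and 645 CPM, the latter the highest of the set, beside 588 CPM in the other R820W replicate.

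Guides with the lowest values in exercised males against females were called lower on both scales. Psi18S-301 had 0.82 to 1.505 CPM in males (median 1.09) and 42.8 to 248 in females (median 136), a log2FC of −7.28 (SE 0.32, adjusted p = 4.8e-12). Psi28S-2179, in RpL22, had 0.439 to 1.11 against 24.4 to 104 (log2FC −6.95), and Psi28S-2949, in the non-coding host gene Uhg4, had 0.175 to 1.11 against 13.5 to 68.4 (log2FC −6.91). Scaled on small RNA they were −1.99, −1.67 and −1.69. At the other end were Psi18S-1347a and Psi18S-1347b at −1.74 and −1.82, and on the small RNA scale Psi18S-1347a was higher in males, at 3.47.

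The difference between the sexes in the exercised against nonexercised contrast was itself tested as an interaction over 32 adult libraries. Of 96 guides, 93 had a lower log2FC in males than in females and 0 a higher one on the TMM scale. Over all genes tested on that scale, 8.64% were called lower and 20.3% higher. The 96 include guides that passed the filter only through exercised females, for which the filter favoured a lower value. The median difference of −4.68 turned to 0.29 relative to other small RNA. Of the 80 guides tested in both sexes, 66 were higher in females and lower in males on the TMM scale, 2 were higher in both, and 12 were higher in females and not called in males. These joint counts have no share of all genes beside them. Scaled on small RNA, 11 had a lower and 27 a higher log2FC in males, where 0.353% of all genes were lower and 93% higher. Psi28S-2622 and Psi28S-2179 were called lower there, at −1.64 and −1.23.

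Lines were set against each other in 25 comparisons within sets: 15 of a transgenic line with attP2 and 10 of A31P or R820W with WT. The guides called in edgeR were Psi28S-2949 and Psi28S-3342, both lower in A31P than in attP2 in nonexercised males. In that comparison 0.569% of all genes were called lower. No guide was called against WT in edgeR's quasi-likelihood test. DESeq2 called 17 over the 10 comparisons, a count that has no share of all genes beside it. Of the 25 comparisons, the median log2FC of the guides was farthest from 0 in R820W against WT in exercised females, at −0.80 (−0.15 on the small RNA scale). There the unadjusted p was under 0.05 for 51 of 96 guides and for 3.12% of all genes, and DESeq2 called 12 guides lower beside 0.308% of all genes.

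Psi28S-2949 (2R, 9095372 to 9095526, plus strand) had 1.11 and 0.142 CPM in the A31P nonexercised male replicates, from 24 and 3 counts. The other 6 libraries of that set were higher, with 4.46 and 4.76 in attP2, 4.55 and 2.50 in WT and 2.33 and 5.00 in R820W. The log2FC against attP2 was −2.95 (SE 0.59, adjusted p = 0.049). With the replicate number as a block the adjusted p was 0.072, so the call was lost, and without A31P nonexercised males replicate 2 the log2FC was −2.13 and not called. On the small RNA scale the value was −2.58 (adjusted p = 4.4e-06).

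The same guide was low in A31P beyond that set. In larvae it had 5.03 and 1.94 CPM in A31P, against 6.03 to 15.5 in the other 6 libraries (log2FC against attP2 −1.41, adjusted p = 0.58). In nonexercised females it had 1.66 and 2.75 CPM against 5.34 to 13.4 (log2FC −2.13, adjusted p = 0.33, and 0.011 with the replicate block), and in exercised females 13.5 and 22.4 CPM against 39.1 to 68.4 (log2FC −1.85, adjusted p = 0.19, and 6.2e-08 in DESeq2). A31P lay below every other library in all of these sets. In exercised males counts were 4 and 8 in A31P and 6 to 23 elsewhere, and they overlapped (log2FC −0.51).

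Scaled to guide counts, which takes out the level of the class in each library, the separation was similar. Per 10000 guide counts, A31P gave 7.69 and 7.32 in larvae against 16.6 to 27.04 in the other lines, and 7.93 and 10.3 in nonexercised females against 27.6 to 31.95. It gave 11.1 and 18.9 in exercised females against 39.7 to 53.4, and 5.99 and 0.965 in nonexercised males against 11.8 to 23.5. In exercised males A31P had 4.51 and 7.29 against 6.33 to 17.2. The host gene Uhg4, in whose intron it lies, overlapped between A31P and the other lines in each set, as did Or-aca5, another H/ACA-type snoRNA.

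**Figure D5:**
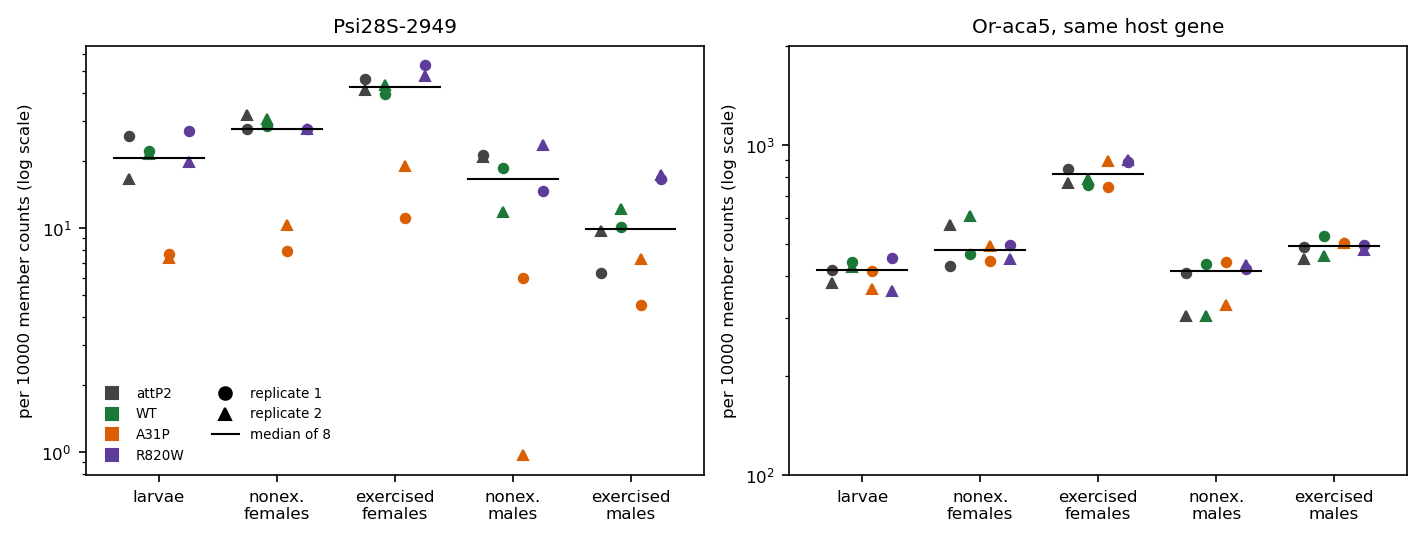
Psi28S-2949 and, for comparison, Or-aca5, in counts per 10000 guide counts (log scale), for each library by set and line. A31P lay below the other 3 lines for Psi28S-2949 in larvae, nonexercised females, exercised females and nonexercised males, and overlapped them in exercised males.

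Psi28S-3342 was lower in A31P than in attP2 by a small amount in nonexercised males. It had 343 and 318 CPM in A31P, 448 and 523 in attP2, 515 and 478 in WT, and 404 and 382 in R820W (log2FC −0.65, SE 0.12, adjusted p = 0.035). A31P was below all 6 others. Scaled on small RNA the log2FC was −0.19 and the call was lost. It was also lost without attP2 nonexercised males replicate 2 (log2FC −0.49).

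Several guides were ordered by line in one set without a call. In exercised females R820W lay below all other libraries for 20 of 105 guides, where 2.46% of all genes did, and WT lay above for 15, against 0.567%. The median log2FC of R820W was −0.43 against attP2 and −0.80 against WT. The summed guide level of R820W exercised females was uneven, with 8175 CPM in replicate 2, the lowest of the set. In exercised males R820W lay above all others for 30 of 92 guides, against 1.66% of all genes. One of those R820W libraries, replicate 2, held female RNA, and without it R820W replicate 1 lay above all others for 42 of 92 guides, against 6.76% of all genes. Whether the order of R820W differed between the sexes was not tested. Psi28S-3327b had 56.3 and 45.3 CPM in WT exercised females against 16.4 to 42.1 in the other lines (log2FC against attP2 1.29, adjusted p = 0.29).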

How the data were processed

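Whole-animal RNA was depleted of rRNA, made into directional libraries and sequenced by the authors. Reads were demultiplexed with bcl2fastq, checked with FastQC, trimmed with cutadapt, freed of residual rRNA reads with TopHat, and mapped and counted in the CLC Genomics Workbench on release 6 of the genome. The values used are the deposited counts of reads per gene, whole numbers without normalization, and the deposited normalized columns were not used. In these counts, genes classed as rRNA by name still held 45913 to 272595 CPM per library. Their set medians ran from 48797 in exercised males to 225930 in larvae, and CPM includes them unless stated. The strand setting, the treatment of reads with several hits and the counting of reads in nested genes were not given in the sources used here.

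Libraries were grouped by their labels. Counts totalled 18493813 to 26917796 per library, and guides at 3 counts or fewer were treated as not detected, a floor that covers counting error only. Genes were filtered with filterByExpr (at least 10 counts per library and 15 in all) and scaled with TMM factors in edgeR 4.0.16 under R 4.3.3, and then tested by its quasi-likelihood F test, two-sided, with Benjamini-Hochberg adjustment over all genes tested. A call needed an adjusted p under 0.05 and an absolute log2FC over 0.5. The 6 comparisons of sex, stage and exercise used the 16 libraries of the 2 sets with genotype as a term, the interaction used 32 adult libraries, and lines were compared within each set of 8. In the line comparisons, p-values measure the spread between 2 pools per group. In the other fits genotype was an additive term. Their spread therefore also holds any difference between genotypes in the contrast tested, and between replicate numbers.

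The alternatives were RLE factors, the likelihood ratio test, DESeq2 1.42.0, no filter, the replicate block, library sizes without small RNA, scaling on other small RNA, each library left out in turn, and leaving out both exercised male libraries with female RNA. The fits within lane 7 and lane 8, the interaction without those 2 libraries, and the ranges of R820W exercised males without one or both of them, were chosen after seeing the data. Tables and figures were prepared in Python 3.11.15 with numpy 2.4.6, pandas 2.3.3 and matplotlib 3.10.9.

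Guides were named by a rule: the 3 highest and 3 lowest log2FC (6 and 6 for nonexercised sexes) among those called with separated libraries, the 6 highest levels per kilobase, guides called between lines, the longest series of copies, and guides of the 3 hosts with most guides. The guides, lists and rule were chosen with earlier results of these data known.

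Replicate numbers mark lanes in larvae and nonexercised adults per the labels. Deviations from group means over 12714 genes correlated with r of 0.10 to 0.51 between genotypes in nonexercised females, −0.33 to 0.57 in larvae and −0.07 to 0.11 in nonexercised males. On data simulated for males against females, nonexercised, over 13800 genes, the fit recovered 97% of genes given an absolute log2FC of 1 and 98% of genes given 2. For lines in exercised females, over 10606 genes, these shares were 72% and 97%. No 2 libraries were identical.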

Additional observations from a re-analysis of the deposited data

Results flagged for a closer look

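The response to exercise, or to the flow cell that went with it, differed between the sexes by a test of the difference itself. In edgeR's interaction test over adult libraries, on the TMM scale, 93 of 96 guides had a lower exercised against nonexercised log2FC in males than in females. Over all genes tested, 8.64% were called lower and 20.3% higher. Some of the 96 guides passed the filter only through exercised females, and for them the filter favoured a lower value. The median difference over the 96 guides was −4.68, which turned to 0.29 relative to other small RNA. The lowest value was that of Psi28S-2622, at −6.65. The exercised sexes ran in different lanes of one flow cell, and sex and lane cannot be told apart there.

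A single library stood apart from the other 7 of its set for 3 of 176 combinations of a named guide and a set. Guides share the level of their library, and some were named for separated libraries, so that share is not compared with a rate expected by chance. Psi18S-640b had 2.32 CPM in WT nonexercised males replicate 1, against 0.71 to 1.35 in the others. Psi28S-3316c had 3.35 CPM in WT exercised females replicate 1, against 1.55 to 2.36. Psi28S-3342 had 65.5 CPM in R820W exercised males replicate 2, one of the libraries with female RNA, against 38.0 to 49.0.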

How the results depend on the processing

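Scaling on other small RNA changed most. It gave 3 guides higher in nonexercised males than females, 29 higher and 22 lower in exercised males than females (median log2FC 0.028), 0 higher and 3 lower in larvae than nonexercised females (median −0.28), and 29 higher in larvae than nonexercised males (median 0.64). It gave 22 higher and 27 lower in exercised females (median 0.020), 42 higher and 10 lower in exercised males (median 0.57), 27 higher and 11 lower in the interaction (median 0.29), and 1 guide called against attP2 and 1 against WT. Of these medians, those for exercised sexes, larvae against females, exercised males and the interaction reversed. Within lane 7, 17 guides were higher and 18 lower in nonexercised males (median −0.025), and larvae against females had a median of 1.84. Within lane 8, 1 was higher in nonexercised males (median −1.08), larvae against females had 4 higher and 4 lower (median −0.061, reversed), and larvae against males had a median of 1.07. The cause of these shifts was not tested.

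Without a filter, 4 guides were higher in exercised males and 2 in the interaction. Without both libraries with female RNA, 1 was higher in each. Guides called in any of 15 comparisons with attP2 numbered 2, against 10 by the likelihood ratio test, 11 by DESeq2, 4 without a filter and 9 without both libraries with female RNA. In any of 10 with WT they numbered 0, against 14, 17, 2 and 5, and 2 with the replicate block. The block also gave Psi28S-2949 a call in A31P nonexercised females against attP2 (log2FC −2.10) and against WT (−2.25) and removed it in nonexercised males against attP2 (−2.96), and Psi28S-3327b gained a call in R820W nonexercised females against WT (−1.04). In the 6 comparisons of sex, stage and exercise the block changed 7 calls, among them Psi28S-1135a in nonexercised sexes (adjusted p = 0.056) and Psi28S-2949 in larvae against females (0.059), which were lost, and in the interaction it changed 0.

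Leaving out each library in turn gave 0 to 15 guides called against attP2 and 0 to 6 against WT. The 15 and 14 called against attP2 came without A31P exercised males replicate 1 and 2, and the 6 and 1 against WT likewise. Leaving out R820W nonexercised females replicate 1 gave 4 and 2. Without either WT nonexercised males replicate or A31P nonexercised males replicate 2, 0 were called against attP2, and 1 without attP2 replicate 1 or 2, A31P replicate 1 or R820W replicate 1 of that set. Against WT, leaving out attP2 nonexercised males replicate 1 or 2 or R820W exercised females replicate 2 gave 1. For nonexercised sexes, 3 to 6 guides were higher and 39 to 49 lower, with a median of −0.67 to −0.45. For exercised males 1 to 2 were higher, and in the interaction 0 to 1.

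With CPM taken over counts without rRNA and 7SL RNA, median summed guide levels were 7181 in larvae, 17431 in exercised females and 2694 in nonexercised males. Without the guide with the most counts, they were 1655 in nonexercised males and 414 in exercised males. Fits that left out 1 library of a pair assume that the lone library varies like the other groups. The counts of guides called between lines in the alternatives above have no share of all genes beside them. They are therefore not read as results about the guides. Guides at or under 3 counts set the limit of detection in exercised males, where guide counts totalled as few as 8230 in a library.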
